A study of Mus musculus with 6 samples.

Results

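Wnt signalling was described here through 10 of the 32285 measured genes, the ligands Wnt2, Wnt5a, Wnt5b and Wnt6, the secreted inhibitors Sfrp1, Sfrp2, Dkk2 and Dkk3, and the intracellular genes Axin2 and Lef1. Their level was the number of unique molecular identifiers (UMIs, each standing for 1 captured RNA molecule) per 1000000 non-mitochondrial UMIs (CPM) of a library or of a cell class within it. The data were single-nucleus RNA-seq of dissected mouse cortical lesions made by photothrombosis, in which light and a dye close small vessels. Nuclei were sorted on a DNA stain, and each of the 6 libraries pooled 1 female and 1 male mouse. Ctrl libraries came from mice labelled wild-type, with no treatment named, and whether they had tamoxifen or a control antibody was not given in the labels. Tgfbr2-cKO libraries came from Col1a2(creER); Tgfbr2(flox) mice, in which tamoxifen-activated Cre removes the type II TGFβ receptor in cells that use the Col1a2 promoter, fibroblasts above all. ADWA11 libraries came from wild-type mice given the antibody ADWA11, which blocks integrin αvβ8, a cell-surface activator of latent TGFβ. Each condition was taken at 7 and at 21 days post injury (dpi), with 1 library each, and all lesions of the series were photothrombotic. The ages of these mice were not given in the labels. No comparison had a replicate library, so no test between conditions was made, and every interval is a 95% exact interval that covers counting error only. The same Ctrl library served both comparisons of its day.

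Wnt ligands are secreted lipid-modified proteins that bind Frizzled receptors on nearby cells. In the β-catenin branch, ligand binding with the co-receptors Lrp5 and Lrp6 stabilizes β-catenin, which joins TCF/LEF factors on DNA, and Wnt5a and Wnt5b are best known for acting outside that branch. Sfrp proteins bind the ligands themselves, and Dkk2 binds the Lrp co-receptors. Axin2 is both a part of the complex that degrades β-catenin and one of its most widely used target genes. In the brain, β-catenin signalling in endothelial cells maintains the blood-brain barrier, and Lef1 and Apcdd1 are among its endothelial genes.

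The libraries held between 7205 and 14246 barcodes and between 64798965 and 140310354 UMIs, with medians of 4601.5 to 8222.5 UMIs per barcode. Of 67360 barcodes in all, 553 sequences occurred in more than 1 library. After filtering, 60590 nuclei were retained and clustered without the Wnt genes among the variable genes, and clusters were named from marker genes. Fibroblast-like nuclei numbered 2005, 330 and 2533 in Ctrl, Tgfbr2-cKO and ADWA11 at 7 dpi, and 4240, 895 and 2817 at 21 dpi. The Tgfbr2-cKO libraries stood apart in make-up, since only 3.12% and 13.7% of their nuclei were fibroblast-like, against 23.5% to 33.3% in the others, and the Tgfbr2-cKO library at 7 dpi held 5939 neuron-like nuclei against 27 to 136 in the other libraries of that day. Summed fibroblast markers in the fibroblast-like nuclei were 8149, 4269.9 and 5989 CPM on day 7 and 6432, 1675 and 4938 CPM on day 21, and summed neuronal markers in the same nuclei were 8.43, 197 and 7.25 CPM and 6.28, 64.5 and 2.00 CPM. Summed astrocyte markers in them were 815, 1071 and 1020.1 CPM on day 7 and 452, 1054 and 505 CPM on day 21, and summed oligodendrocyte markers 71.6, 98.6 and 73.4 CPM on day 7 and 91.1, 242 and 67.7 CPM on day 21. Summed osteoblast markers were 337 to 787 CPM, after sub-clusters led by bone genes had been left out. The part of these markers in the results below was not tested.

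The 10 genes lie on 7 autosomes of the GRCm38 build, and Lef1 and Dkk2 are close to each other on chromosome 3. Axin2 is at chr11:108920349-108950783 and Lef1 at chr3:131110471-131224356. Dkk2 is at chr3:132085292-132180304, Sfrp2 at chr3:83766321-83774316 and Dkk3 at chr7:112116017-112159057. Wnt2 is at chr6:17988940-18030585, Wnt5b at chr6:119432531-119544347, Wnt5a at chr14:28504750-28527448 and Wnt6 at chr1:74771892-74785322. Sfrp1 is at chr8:23411502-23449632. Axin2, Lef1, Dkk2, Sfrp1, Sfrp2, Wnt5a and Wnt6 are on the plus strand, and Dkk3, Wnt2 and Wnt5b on the minus strand.

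Promoters from RefSeq (GRCm38.p6, 250 bases before to 50 after a start site) were matched for 7 of the 10 genes, with 12 start sites among them, and none was matched for Wnt5a, Sfrp1 and Dkk3. They were searched on both strands for the TCF/LEF word CTTTGNN with A or T as each of its last letters, where β-catenin acts, and for the SMAD box CAGAC, where the effectors of the TGFβ receptor bind. A TCF/LEF word was in 2 of the 12, against 16.9% of all 32851 promoters of that length, and a SMAD box in 8 of the 12, against 49.6%. Axin2 and Lef1 are shown because the comparisons below turn on them, Wnt5b because it holds the other TCF/LEF word, and Wnt6 because its CPM was higher in each treated library and its window held neither word. Capitals mark TCF/LEF words and SMAD boxes, which did not overlap. The TCF/LEF word of the Lef1 promoter lies 147 bases before its start site and that of Wnt5b 71 bases before. The windows are chr11:108920099-108920398 (plus strand) for Axin2, chr3:131156044-131156343 (plus strand, the last of 4 start sites) for Lef1, chr6:119449337-119449636 (minus strand, the first of 3 start sites) for Wnt5b and chr1:74771642-74771941 (plus strand) for Wnt6. A match is a description of the letters and not evidence of binding.
Axin2: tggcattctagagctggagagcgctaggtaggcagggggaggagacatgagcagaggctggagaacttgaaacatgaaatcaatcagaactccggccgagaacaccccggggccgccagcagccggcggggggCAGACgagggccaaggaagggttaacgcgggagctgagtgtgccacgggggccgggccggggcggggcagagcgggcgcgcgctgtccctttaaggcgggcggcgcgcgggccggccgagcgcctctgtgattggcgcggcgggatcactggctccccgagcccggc
Lef1: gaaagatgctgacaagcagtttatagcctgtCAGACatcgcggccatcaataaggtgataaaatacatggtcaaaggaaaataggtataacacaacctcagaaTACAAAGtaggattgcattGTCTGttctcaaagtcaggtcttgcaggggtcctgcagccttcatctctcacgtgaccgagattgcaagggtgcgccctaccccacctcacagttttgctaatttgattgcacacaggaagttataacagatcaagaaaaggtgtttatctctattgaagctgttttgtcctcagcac
Wnt5b: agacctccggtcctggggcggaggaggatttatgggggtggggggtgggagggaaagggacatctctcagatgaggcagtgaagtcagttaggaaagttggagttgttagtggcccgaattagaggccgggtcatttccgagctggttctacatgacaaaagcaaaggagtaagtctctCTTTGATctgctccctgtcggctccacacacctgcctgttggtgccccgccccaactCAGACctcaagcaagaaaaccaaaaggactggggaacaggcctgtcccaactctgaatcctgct
Wnt6: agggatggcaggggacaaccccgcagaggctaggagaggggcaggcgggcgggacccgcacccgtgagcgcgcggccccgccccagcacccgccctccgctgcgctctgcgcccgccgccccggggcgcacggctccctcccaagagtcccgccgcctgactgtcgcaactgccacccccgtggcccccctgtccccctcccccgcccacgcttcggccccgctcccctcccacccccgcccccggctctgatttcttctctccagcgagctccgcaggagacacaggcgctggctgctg

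The targeted gene, Tgfbr2, was read at 317, 238 and 245 CPM on day 7 and 222, 186 and 192 CPM on day 21 in Ctrl, Tgfbr2-cKO and ADWA11 fibroblast-like nuclei. The log2 ratio of Tgfbr2-cKO to Ctrl was -0.41 (-0.55 to -0.28) at 7 dpi and -0.26 (-0.34 to -0.18) at 21 dpi. The ADWA11 libraries, whose mice carried no Tgfbr2 deletion, differed from Ctrl by -0.37 (-0.43 to -0.32) and -0.21 (-0.27 to -0.16). The UMIs are counted over the whole gene, so a message that lacks the deleted exons is still counted, and these values do not measure the deletion.

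Fibroblast-like nuclei held most of the UMIs of 4 ligands and inhibitors, and the other genes were spread over more classes. Of all UMIs in retained nuclei, fibroblast-like nuclei held 76.4% for Wnt5a, 69.1% for Wnt6, 56.7% for Sfrp2 and 51.9% for Wnt5b. Dkk3 was divided between fibroblast-like (46.5%) and neuron-like (34.5%) nuclei. Lef1 was divided between fibroblast-like (40.7%), endothelial-like (36.2%) and T cell-like (14.3%) nuclei, and Axin2 between fibroblast-like (45.3%), neuron-like (18.2%) and astrocyte-like (16.4%) nuclei. Sfrp1 was held mainly by astrocyte-like (39.5%) and fibroblast-like (32.6%) nuclei, Dkk2 by myeloid (51.6%) and fibroblast-like (26.8%) nuclei, and Wnt2 by neuron-like nuclei (76.5%), 757 of whose 825 UMIs came from Tgfbr2-cKO at 7 dpi. These shares follow the number of nuclei of each class as well as the level in each. Over whole libraries, Lef1 was read at 65.0, 5.25 and 39.0 CPM in Ctrl, Tgfbr2-cKO and ADWA11 on day 7 and 53.4, 30.5 and 30.1 CPM on day 21, and Dkk2 at 51.9, 5.98 and 22.8 CPM on day 7 and 49.6, 29.6 and 8.41 CPM on day 21 in the same order. In such whole-library values, fewer cells of a type and less RNA per cell cannot be told apart, and the values below are therefore given within classes.

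Wnt5a and Wnt5b, the ligands with the most UMIs in fibroblast-like nuclei, differed in their time course, since Wnt5b was lower at 21 than at 7 dpi in each condition and Wnt5a in Ctrl and ADWA11 but not in Tgfbr2-cKO. The Ctrl ratio of Wnt5a between the days was -0.43 (-0.55 to -0.32), but -0.03 with sub-cluster shares held, and within the arachnoid-like sub-cluster 2 it was 0.39 (0.08 to 0.71). Wnt5a was read at 65.3, 83.4 and 77.3 CPM in Ctrl, Tgfbr2-cKO and ADWA11 on day 7 and 48.3, 105 and 37.7 CPM on day 21. The Tgfbr2-cKO library at 21 dpi was the highest and the ADWA11 library of that day the lowest. The log2 ratio to Ctrl at 21 dpi was 1.12 (1.00 to 1.25) in Tgfbr2-cKO and -0.36 (-0.48 to -0.24) in ADWA11. The Tgfbr2-cKO ratio was 0.43 with sub-cluster shares held and 0.87 in female nuclei alone. At 7 dpi the ratio was 0.35 (0.12 to 0.58) in Tgfbr2-cKO and 0.24 (0.14 to 0.35) in ADWA11. The 7 dpi ratio of Tgfbr2-cKO was 0.77 in female and -0.28 in male nuclei, and that of ADWA11 was 0.0161 with sub-cluster shares held. Both mice of the Tgfbr2-cKO library at 21 dpi, told apart by sex-linked transcripts, were above both mice of the Ctrl library, at 98.4 and 109.5 CPM against 53.8 and 43.4 CPM. Wnt5b was read at 58.1, 88.1 and 58.1 CPM on day 7 and 31.6, 41.0 and 31.7 CPM on day 21 in Ctrl, Tgfbr2-cKO and ADWA11. Its log2 ratio of 21 to 7 dpi was -0.88 (-1.01 to -0.75) in Ctrl, -1.10 (-1.37 to -0.84) in Tgfbr2-cKO and -0.88 (-1.01 to -0.75) in ADWA11. The Ctrl ratio lay between -0.96 and -0.62 in the alternatives. Within sub-clusters 0 and 2 it was -0.09 (-0.98 to 0.99) and -0.04 (-0.48 to 0.42), and in sub-cluster 1 -0.92 (-1.58 to -0.34), from 24 UMIs at 21 dpi. Sub-cluster 3 of Ctrl held Wnt5b at 51.9 CPM at 7 dpi and 41.0 CPM at 21 dpi. The intervals of its ADWA11 to Ctrl ratios, 0.00 (-0.12 to 0.12) at 7 dpi and 0.00 (-0.14 to 0.14) at 21 dpi, hold 0.

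Wnt6 and Wnt2 were read at low levels in fibroblast-like nuclei, and Wnt6 was higher than Ctrl in each of the treated libraries. Wnt6, a ligand known from epithelia and ectoderm, was read at 0.538, 5.69 and 2.84 CPM on day 7 and 1.35, 7.04 and 2.35 CPM on day 21 in Ctrl, Tgfbr2-cKO and ADWA11, from UMI totals of 9, 12 and 73 on day 7 and 42, 56 and 54 on day 21. Its log2 ratio to Ctrl was 3.40 (2.03 to 4.83) and 2.38 (1.78 to 2.99) in Tgfbr2-cKO on days 7 and 21, and 2.40 (1.40 to 3.59) and 0.80 (0.19 to 1.41) in ADWA11. At 21 dpi the 2 Tgfbr2-cKO mice were at 8.62 (female) and 5.76 CPM (male), against 1.82 and 0.957 CPM in Ctrl. Within the arachnoid-like sub-cluster, which held most of its fibroblast UMIs, the Tgfbr2-cKO ratio at 21 dpi was 0.37 (-0.46 to 1.19). The 7 dpi Ctrl value, the base of the largest of these ratios, rests on 9 UMIs. Wnt2 was read at 1.08, 3.32 and 1.71 CPM on day 7 and 1.55, 2.26 and 2.83 CPM on day 21, from 7 to 65 UMIs, and its ratio to Ctrl ranged from 0.55 to 1.62. The Wnt2 interval held 0 in Tgfbr2-cKO at 21 dpi, at 0.55 (-0.32 to 1.36), and lay above 0 in ADWA11 at that day, at 0.87 (0.31 to 1.44).

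**Figure D1:**
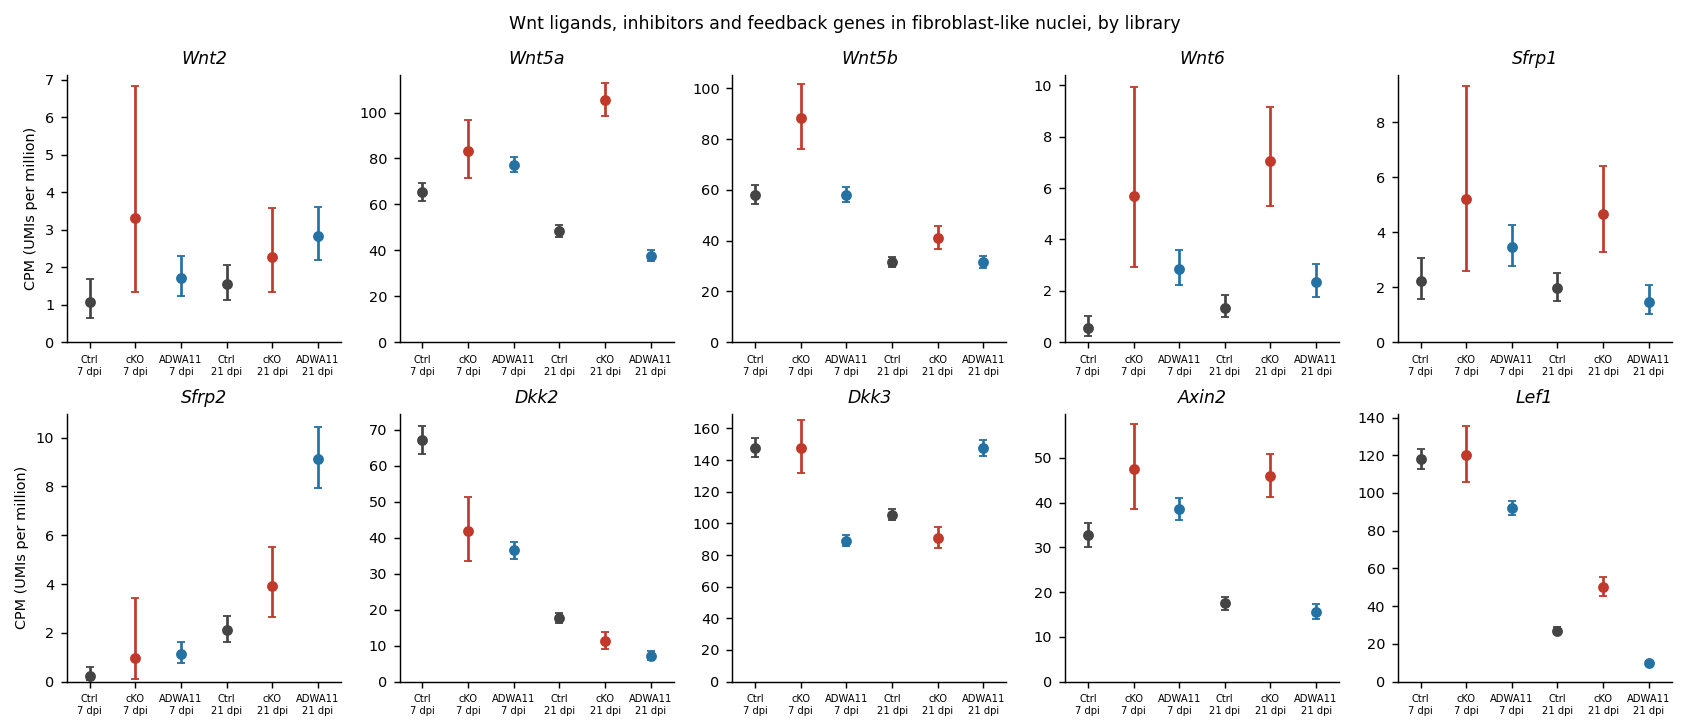
CPM of each of the 10 genes in fibroblast-like nuclei (vertical axis, each panel with its own scale from 0) in the 6 libraries, with 95% Poisson intervals, 1 point per library. Sfrp2 is highest in ADWA11 at 21 dpi (9.14 CPM), Lef1 is lowest there (9.79 CPM), and Dkk2 is highest in Ctrl at 7 dpi (67.1 CPM).

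Among the inhibitors, Sfrp2 was higher in ADWA11 fibroblast-like nuclei and Dkk2 was lower in both treatments. At 21 dpi Dkk2 was not lower with sub-cluster shares held nor, in Tgfbr2-cKO, in female nuclei alone. Sfrp2, a ligand-binding protein made by fibroblasts in many tissues, was read at 0.239, 0.948 and 1.13 CPM in Ctrl, Tgfbr2-cKO and ADWA11 on day 7 and 2.13, 3.90 and 9.14 CPM on day 21, from UMI totals of 4, 2 and 29 on day 7 and 66, 31 and 210 on day 21. The library with ADWA11 at 21 dpi was the highest, with a log2 ratio to Ctrl of 2.10 (1.70 to 2.53). Both of its mice were above both Ctrl mice, at 7.73 and 10.4 CPM against 1.94 and 2.49 CPM. Sfrp2 was also higher at 21 than at 7 dpi within Ctrl, by 3.15 (1.73 to 5.07), from 4 UMIs at 7 dpi. In Tgfbr2-cKO at 21 dpi the log2 ratio was 0.88 (0.21 to 1.51), but all 31 UMIs lay in sub-cluster 7, in which oligodendrocyte markers were raised, and without it the ratio was at most -1.70, from 0 UMIs. At 7 dpi Sfrp2 had too few UMIs for a ratio of Tgfbr2-cKO to Ctrl, and the ADWA11 ratio was 2.24 (0.73 to 4.21). Of the 29 ADWA11 UMIs of Sfrp2 at 7 dpi, 16 lay in sub-cluster 1, with 62.5% of those 16 in 1 nucleus. Sfrp1, its close relative, was read at 2.21, 5.21 and 3.47 CPM on day 7 and 1.96, 4.65 and 1.48 CPM on day 21, and Tgfbr2-cKO was above Ctrl by 1.24 (0.12 to 2.24) and 1.24 (0.61 to 1.86). With sub-cluster shares held these ratios were 0.36 and 0.52, the 7 dpi ratio was 0.51 in female nuclei and the 21 dpi ratio 0.52 in male nuclei.

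Dkk2 was read at 67.1, 41.7 and 36.4 CPM in Ctrl, Tgfbr2-cKO and ADWA11 on day 7 and 17.6, 11.2 and 7.18 CPM on day 21. Ctrl at 7 dpi was the highest and ADWA11 at 21 dpi the lowest, and within each condition 7 dpi was above 21 dpi. The log2 ratio to Ctrl was -0.69 (-1.02 to -0.37) and -0.66 (-0.996 to -0.33) in Tgfbr2-cKO on days 7 and 21, and -0.88 (-1.01 to -0.75) and -1.30 (-1.56 to -1.04) in ADWA11. The 7 dpi ratio of Tgfbr2-cKO was -0.17 in female nuclei alone. At 21 dpi the mice of a library differed, with 12.3 CPM in the female and 28.1 CPM in the male Ctrl nuclei, 16.7 and 8.78 CPM in Tgfbr2-cKO and 11.7 and 3.75 CPM in ADWA11. The female ADWA11 and Ctrl values differed little and the male values differed widely. In Tgfbr2-cKO the female value was above that of Ctrl, with a log2 ratio of 0.44, and the male value below it. Dkk3, a divergent member of the Dickkopf family, was read at 148, 148 and 89.1 CPM on day 7 and 106, 90.7 and 148 CPM on day 21 in Ctrl, Tgfbr2-cKO and ADWA11. In ADWA11 it was lower than Ctrl at 7 dpi, with a log2 ratio of -0.73 (-0.81 to -0.65), and higher at 21 dpi, with one of 0.48 (0.41 to 0.55). The 21 dpi ratio of Dkk3 was 0.25 with sub-cluster shares held.

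Axin2 and Lef1, the genes downstream of the receptor, were highest relative to Ctrl in Tgfbr2-cKO at 21 dpi, which did not hold with sub-cluster shares held, and Lef1 was lowest in ADWA11 at that day. Axin2 was read at 32.6, 47.4 and 38.5 CPM in Ctrl, Tgfbr2-cKO and ADWA11 on day 7 and 17.5, 45.9 and 15.6 CPM on day 21. Its log2 ratio of 21 to 7 dpi was -0.90 (-1.08 to -0.73) in Ctrl, -1.31 (-1.48 to -1.13) in ADWA11 and -0.05 (-0.37 to 0.29) in Tgfbr2-cKO. With sub-cluster shares held, the Ctrl ratio between the days was -0.46. The Tgfbr2-cKO ratio to Ctrl at 21 dpi was 1.40 (1.20 to 1.59), or 0.19 with shares held. The 2 Tgfbr2-cKO mice were at 51.4 and 41.7 CPM against 18.01 and 16.5 CPM in Ctrl. Lef1, the TCF/LEF factor, was read at 118, 119.9 and 92.0 CPM on day 7 and 26.8, 50.2 and 9.79 CPM on day 21 in Ctrl, Tgfbr2-cKO and ADWA11. Its log2 ratio of 21 to 7 dpi in Ctrl was -2.14 (-2.26 to -2.02), and -0.99 with sub-cluster shares held. At 21 dpi the ratio to Ctrl was 0.90 (0.73 to 1.08) in Tgfbr2-cKO, or -0.46 with shares held, and -1.45 (-1.67 to -1.24) in ADWA11. Both ADWA11 mice, at 16.5 and 6.04 CPM, were below both Ctrl mice, at 30.6 and 18.7 CPM.

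Counted at a threshold of 2-fold, with at least 20 UMIs over both libraries, the 10 genes passed as follows. The shares of all genes are of the main setting, and counts under alternatives have no such share beside them. In Tgfbr2-cKO against Ctrl at 7 dpi, Wnt2, Wnt6 and Sfrp1 were higher and none was lower of 9 with enough UMIs, where 8.6% of all genes were higher and 5.06% lower. In female nuclei alone 0 of the members passed, where Wnt2 had 0 UMIs in Tgfbr2-cKO, Wnt6 had 2 against 3 in Ctrl, both too few to count, and the Sfrp1 ratio was 0.51. In Tgfbr2-cKO at 21 dpi, Wnt5a, Wnt6, Sfrp1 and Axin2 were higher and none lower of 10, against 9.49% and 8.09% of all genes. Without sub-cluster 7, described below, Lef1 passed as well (1.59), Dkk2 was lower (-2.25) and Sfrp2 had 0 UMIs and was lower by its bound (at most -1.70), so that 7 members passed. When sub-cluster shares were held, 2 passed, Wnt2 (1.66) and Wnt6 (1.51), while Wnt5a was 0.43, Sfrp1 0.52 and Axin2 0.19. That Wnt2 value rests on sub-cluster 0, where Tgfbr2-cKO had 7 UMIs, 85.7% of them in 1 nucleus, and in female nuclei alone the ratio was -0.95, from 2 against 19 UMIs. In ADWA11 at 7 dpi, Wnt6 and Sfrp2 were higher and none lower, against 6.88% and 3.32%. In ADWA11 at 21 dpi, Sfrp2 was higher and Dkk2 and Lef1 lower, against 4.42% and 3.89%. Lef1 was under 2-fold in 3 alternatives, at -0.84 with log-normalised clustering, -0.99 in nuclei gated on marker UMIs and -0.89 in female nuclei alone. Dkk2 was 0.11 with sub-cluster shares held and -0.07 in female nuclei alone. Between 21 and 7 dpi in Ctrl, Wnt6 and Sfrp2 were higher and Dkk2 and Lef1 lower, against 14% and 6.91%. Wnt6 was under 2-fold in nuclei gated on marker UMIs, at 0.62. With sub-cluster shares held, Lef1 was -0.99, under 2-fold, and Dkk2 0.87. That Dkk2 value rests on sub-cluster 1, whose ratio was 1.01 and which had 83 nuclei in Ctrl at 21 dpi, with 34.7% of their Dkk2 UMIs in 1 nucleus, while the ratios in sub-clusters 0 and 3 were -1.89 (-2.79 to -0.84) and -0.59 (-1.22 to -0.01) and sub-cluster 2 had too few UMIs. The median log2 ratios of the members were 0.54, 0.89, 0.24, -0.08 and -0.46 in these 5 comparisons, where those of all genes lay between -0.01 and 0.09. The members were chosen with earlier results of these data known, and the values of all genes were not matched to them for UMI count. These contrasts with all genes are therefore descriptions, and the same holds for the counts of members and gene lists below.

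**Figure D2:**
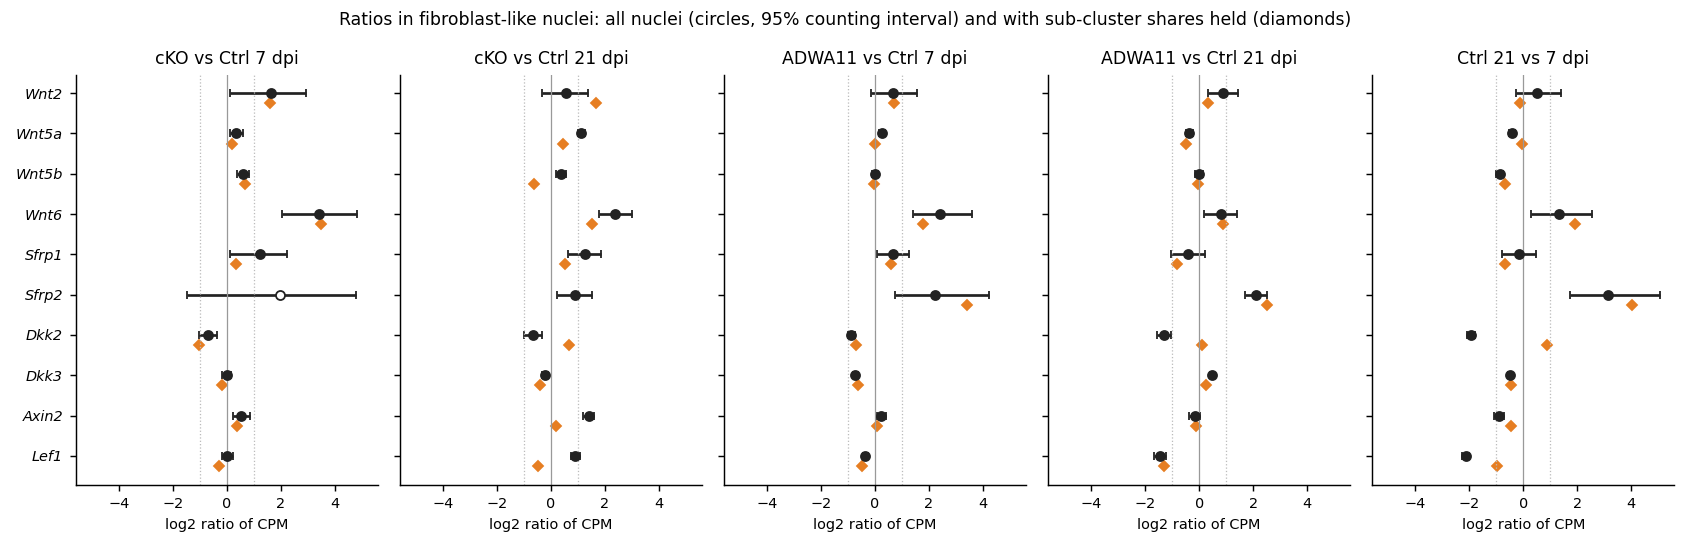
Log2 CPM ratios of the 10 genes in fibroblast-like nuclei, 1 panel per comparison, with 95% counting intervals. Circles are all fibroblast-like nuclei (open where there were under 20 UMIs), diamonds the ratio with sub-cluster shares held at those of the second library, and dotted lines mark 2-fold. In Tgfbr2-cKO at 21 dpi the diamond of Axin2 (0.19) lies far below its circle (1.40), and in ADWA11 at 21 dpi both symbols of Lef1 lie below -1 and both of Sfrp2 above 1.

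The fibroblast-like nuclei were divided into 9 sub-clusters, and the members differed between them in level. Pooled over libraries, Lef1 was 175 CPM in the leptomeningeal-like sub-cluster 3, 101 CPM in the arachnoid-like sub-cluster 2 and 78.7 CPM in the myofibroblast-like sub-cluster 1. It was 7.35 CPM in the large unnamed sub-cluster 0, led by Vsx1, Slc47a2 and Prok2. Axin2 was 55.0 CPM in the arachnoid-like and 48.7 CPM in the leptomeningeal-like nuclei. The order of these sub-clusters differed between libraries, since Lef1 was 235 CPM in the arachnoid-like and 191 CPM in the leptomeningeal-like nuclei of Ctrl at 7 dpi, and Axin2 38.9 and 49.3 CPM in those of Ctrl at 21 dpi. Wnt5a was 149.8 and 117 CPM in these and 51.3 CPM in the myofibroblast-like nuclei of sub-cluster 1. Wnt6 was 8.94 CPM in the arachnoid-like nuclei, which held 53.3% of its fibroblast UMIs. The inhibitors were placed differently. Dkk2 was 73.8 CPM in the proliferating nuclei and 72.0 CPM in the myofibroblast-like sub-cluster 1 but 1.98 CPM in the arachnoid-like nuclei. Sub-cluster 10, also myofibroblast-like, had 252 nuclei and is led by genes that include Lgr6 and Col9a1. It had Dkk2 at 37.7 CPM, Lef1 at 22.7 CPM and Wnt5a at 27.2 CPM. Sfrp1 was highest in the leptomeningeal-like nuclei (8.26 CPM), and Sfrp2 in the unnamed sub-cluster 9, led by Ryr3 and Ccn5 (26.0 CPM). Dkk3 was 205 CPM in the leptomeningeal-like nuclei and 53.9 CPM in its lowest sub-cluster, 7. Wnt5b, pooled in the same way, lay between 23.5 and 78.0 CPM.

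**Figure D3:**
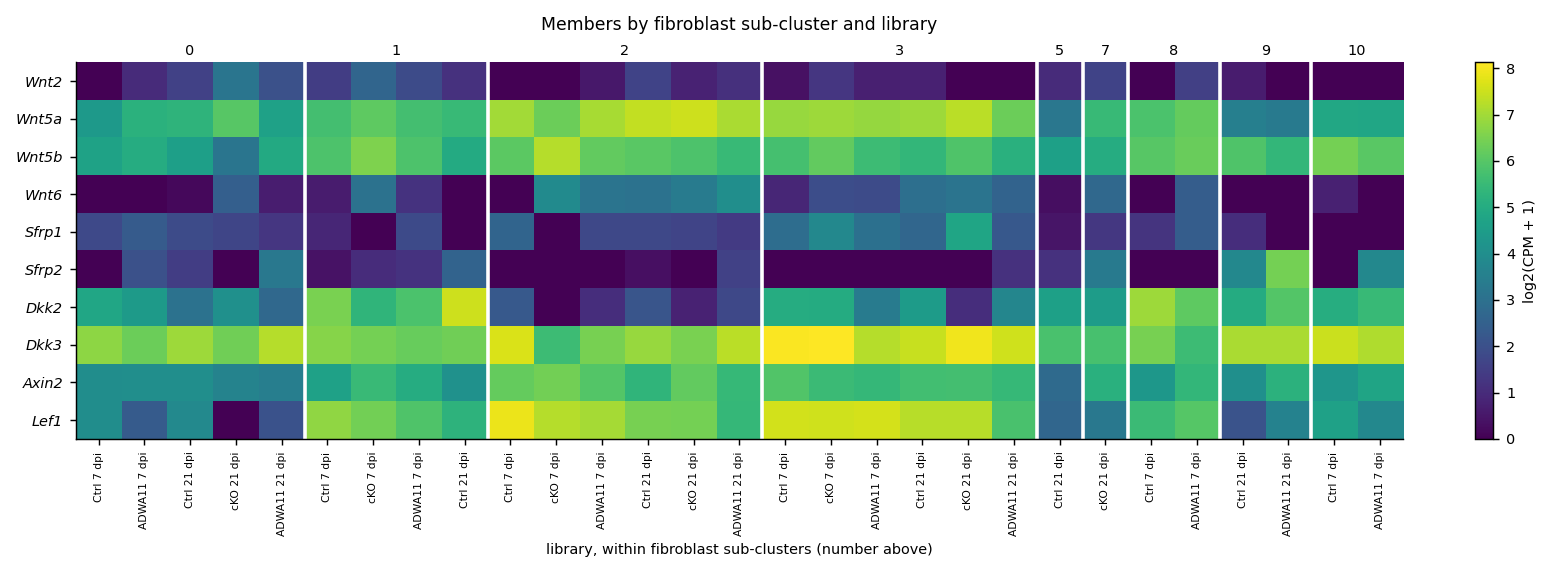
Heat map of log2(CPM + 1) of the 10 genes (vertical axis) in each fibroblast sub-cluster and library with at least 30 nuclei (horizontal axis). Lef1, Axin2 and Wnt5a are highest in sub-clusters 2 and 3, and Dkk2 is high in sub-clusters 1 and 8 and low in sub-cluster 2.

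The libraries held the sub-clusters in different shares. At 7 dpi the myofibroblast-like sub-cluster 1 was 54.1%, 40.3% and 47.9% of fibroblast-like nuclei in Ctrl, Tgfbr2-cKO and ADWA11, and at 21 dpi it was 1.96%, 0.447% and 0.497%. The myofibroblast-like sub-cluster 10 was 8.48%, 0.303% and 2.61% at 7 dpi in the same order, and 0.212% in Ctrl at 21 dpi. Sub-cluster 0 was 45.0%, 9.72% and 78.1% at 21 dpi, and the arachnoid-like sub-cluster 2 was 15.7%, 40.0% and 13.03%. Sub-cluster 5 was 23.7% of the Ctrl nuclei at 21 dpi and sub-cluster 7, in which 4 oligodendrocyte markers were raised, 34.4% of the Tgfbr2-cKO nuclei. In the arachnoid-like sub-cluster 2, 4 astrocyte markers were raised, and their part in its values was not tested. How dissection of the brain surface contributed to the arachnoid-like and leptomeningeal-like shares was not tested.

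With the sub-cluster shares held at those of Ctrl, over the sub-clusters that both libraries hold, the Tgfbr2-cKO ratios of several members at 21 dpi were smaller or changed sign. Axin2 went from 1.40 to 0.19, Wnt5a from 1.12 to 0.43, Lef1 from 0.90 to -0.46, Wnt6 from 2.38 to 1.51 and Wnt5b from 0.38 to -0.62. The shared sub-clusters were 0, 2 and 3, which held 65.0% of the Tgfbr2-cKO and 67.0% of the Ctrl nuclei. Within the arachnoid-like nuclei, Axin2 was still higher in Tgfbr2-cKO, at 0.86 (0.54 to 1.17) on the log2 scale, while in the leptomeningeal-like nuclei it was 0.05 (-0.52 to 0.60). Lef1 was -0.05 (-0.30 to 0.19) and 0.02 (-0.30 to 0.33) in these sub-clusters, and both intervals hold 0. In sub-cluster 0, Axin2 was -0.43 (-1.51 to 0.48), and Lef1 had 0 UMIs in Tgfbr2-cKO and 195 in Ctrl, a log2 ratio of at most -1.96 against a floor of 3 UMIs. Wnt6 was 0.37 (-0.46 to 1.19) in the arachnoid-like and 0.18 (-1.45 to 1.72) in the leptomeningeal-like nuclei, so that its ratio with shares held rests on sub-cluster 0, where it had 4 UMIs in Tgfbr2-cKO and 2 in Ctrl. Sfrp1 was 26.5 CPM in Tgfbr2-cKO leptomeningeal-like nuclei and 5.47 CPM in Ctrl, a log2 ratio of 2.28 (1.08 to 3.64). In sub-cluster 0 the Sfrp1 ratio was -0.22 (-3.32 to 1.73), and sub-cluster 2 had too few UMIs, 6 against 9. The Wnt5b ratio was -1.53 (-2.86 to -0.48) in sub-cluster 0, from 7 UMIs in Tgfbr2-cKO, and -0.19 (-0.48 to 0.11) in the arachnoid-like nuclei. In the leptomeningeal-like nuclei Wnt5b was 58.6 CPM in Tgfbr2-cKO and 41.0 CPM in Ctrl.

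The ADWA11 ratios of Lef1 and Sfrp2 at 21 dpi were kept when shares were held, at -1.31 and 2.52, over 4 sub-clusters that held 97.9% of the ADWA11 and 73.7% of the Ctrl nuclei. The Lef1 ratio of ADWA11 to Ctrl was -2.10 (-2.55 to -1.67) in sub-cluster 0, -1.08 (-1.41 to -0.75) in the arachnoid-like and -1.46 (-1.97 to -0.99) in the leptomeningeal-like nuclei. Sfrp2 was higher in sub-cluster 0, at 8.48 against 1.77 CPM, a log2 ratio of 2.26 (1.66 to 2.92). It was also higher in sub-cluster 9, at 85.6 against 12.9 CPM, a ratio of 2.72 (1.95 to 3.53). In sub-cluster 9 Lef1 was 1.80 (-0.25 to 3.77), from 5 UMIs in ADWA11 and 6 in Ctrl. The ratio of Axin2, like Lef1 a target gene, was -0.59 (-0.87 to -0.30) in sub-cluster 0, 0.14 (-0.24 to 0.50) in the arachnoid-like and -0.22 (-0.86 to 0.38) in the leptomeningeal-like nuclei. In sub-cluster 9 Axin2 was higher, at 36.0 against 15.6 CPM, a ratio of 1.20 (0.22 to 2.13). The Dkk2 ratio did not keep its direction, going from -1.30 to 0.11 in ADWA11 and, in Tgfbr2-cKO at 21 dpi, from -0.66 to 0.66. In ADWA11 it was -0.34 (-0.74 to 0.06) in sub-cluster 0, -0.77 (-1.97 to 0.29) in sub-cluster 3 and 0.98 (0.27 to 1.67) in sub-cluster 9, and sub-cluster 2 had too few UMIs, 6 against 13. In Tgfbr2-cKO, sub-cluster 2 had too few UMIs, 2 against 13, and sub-cluster 3 had 1 against 31, a ratio of -4.26 (-9.61 to -1.68). It was 1.13 (0.21 to 1.94) in sub-cluster 0, where 1 nucleus held 92.9% of its 14 UMIs. At 7 dpi, with shares held, Dkk2 was -1.01 in Tgfbr2-cKO and -0.71 in ADWA11.

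Endothelial-like nuclei, whose summed endothelial markers lay between 6788 and 9466 CPM in the 6 libraries, held Lef1 at a higher CPM than any other class in each library but ADWA11 at 21 dpi, where T cell-like nuclei were above them. Lef1 was read there at 605, 881 and 429.9 CPM in Ctrl, Tgfbr2-cKO and ADWA11 on day 7 and 700.1, 993 and 275 CPM on day 21. The lowest library was ADWA11 at 21 dpi and the highest Tgfbr2-cKO at 21 dpi. The log2 ratio to Ctrl was -0.49 (-0.63 to -0.36) at 7 dpi and -1.35 (-1.48 to -1.21) at 21 dpi in ADWA11, and 0.50 (0.37 to 0.63) in Tgfbr2-cKO at 21 dpi. Split by mouse, ADWA11 at 21 dpi had 312 and 338 CPM against 708 and 704 CPM in Ctrl, with both ADWA11 mice below both Ctrl mice. At 7 dpi the lower ADWA11 value came from 1 mouse, with 281 CPM in female and 598 CPM in male nuclei against 625 and 571 CPM in Ctrl. Axin2 was read at 11.1, 25.5 and 12.1 CPM on day 7 and 13.7, 21.9 and 4.90 CPM on day 21, from UMI totals of 21, 5 and 19 on day 7 and 43, 14 and 10 on day 21, and its ADWA11 ratio at 21 dpi was -1.49 (-2.64 to -0.47). Wnt5a was 27.8, 81.3 and 6.86 CPM on day 21, with ratios of 1.55 (1.03 to 2.06) in Tgfbr2-cKO and -2.02 (-2.95 to -1.19) in ADWA11. Wnt2, Wnt6, Sfrp1 and Sfrp2 had at most 9 UMIs in any endothelial-like group.

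Of the members with enough UMIs in endothelial-like nuclei, 0 were higher and 3 lower (Lef1, Axin2 and Wnt5a) of 6 in ADWA11 at 21 dpi, where 3.41% of all genes were higher and 5.38% lower. In Tgfbr2-cKO at 21 dpi 1 was higher (Wnt5a) and 2 lower (Dkk2 and Dkk3) of 6, against 5% and 10.9%, and in ADWA11 at 7 dpi 0 were higher and 2 lower (Dkk2 and Wnt5b) of 6, against 6.1% and 2.98%. Several of these ratios were past 2-fold in 1 mouse only. In female and male nuclei, Wnt5a in ADWA11 at 21 dpi was -3.11 and -0.36, and Wnt5b in ADWA11 at 7 dpi -0.90 and -2.60. Dkk2 was 0.0759 and -3.51 in ADWA11 at 7 dpi and -0.84 and -2.69 in Tgfbr2-cKO at 21 dpi. Dkk3 had 3 UMIs in Tgfbr2-cKO at 21 dpi, 0 of them in nuclei assigned to a mouse, so its values by mouse, at most -1.02 and at most -0.27, are bounds. Past 2-fold in both mice at 21 dpi were Lef1 in ADWA11 (-1.18 and -1.06), Axin2 in ADWA11 (-1.70 and -2.83, the latter from 1 against 9 UMIs) and Wnt5a in Tgfbr2-cKO (1.51 and 2.06). Tgfbr2-cKO at 7 dpi had 37 endothelial-like nuclei, and its values are given without a comparison. Summed fibroblast markers in the endothelial-like nuclei were 1319, 245 and 894 CPM on day 7 and 2546, 203 and 1810.2 CPM on day 21, and their part in the Dkk2, Dkk3 and Wnt5a values was not tested.

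Of the 10 feedback and target genes of β-catenin signalling with enough UMIs in the endothelial-like nuclei of ADWA11 at 21 dpi, 0 were at least 2-fold higher and 6 at least 2-fold lower (Axin2, Lef1, Apcdd1, Tnfrsf19, Nkd1 and Nkd2), with a median of -1.35, where 3.41% of all genes were higher and 5.38% lower. Endothelial-like nuclei were not divided into sub-clusters. In these values and those of the members above, the mix of vessels and the level per nucleus therefore cannot be told apart. The Ctrl, Tgfbr2-cKO and ADWA11 libraries of that day held 194, 810 and 10 neuron-like and 148, 691 and 23 oligodendrocyte-like nuclei. Whether the kind of vessel differed with them was not tested. Apcdd1, a membrane inhibitor of Wnt signalling, was read at 120.4, 122 and 54.9 CPM in Ctrl, Tgfbr2-cKO and ADWA11 on day 7 and 146, 224 and 27.4 CPM on day 21, with an ADWA11 ratio of -1.13 (-1.51 to -0.77) at 7 dpi and -2.41 (-2.83 to -2.00) at 21 dpi. The 7 dpi ratio was under 2-fold in male nuclei, at -0.76, and the alternatives at 21 dpi lay between -2.69 and -2.025. From the receptor list, Lgr5, an R-spondin receptor, had 0 UMIs in ADWA11 and 24 in Ctrl, a log2 ratio of at most -2.38 against a floor of 3 UMIs, and Ror2, a Wnt5a receptor, had a ratio of -2.19 (-2.87 to -1.57). Summed fibroblast markers in these nuclei were 2546 CPM in Ctrl and 1810.2 CPM in ADWA11, and their part in the Lgr5 and Ror2 values was not tested. The other genes of the feedback list are named after their values were seen. Tnfrsf19 was 84.0 CPM in Ctrl and 29.9 CPM in ADWA11, a log2 ratio of -1.49 (-1.92 to -1.08). Nkd1, a feedback inhibitor, was 35.1 and 13.7 CPM, a ratio of -1.36 (-2.01 to -0.75), which was -1.51 in female and -0.59 in male nuclei. The ratio of its relative Nkd2 was -1.48 (-2.57 to -0.51) and that of Znrf3, which removes Frizzled receptors, -0.92 (-1.15 to -0.70). Those of Rnf43, Bambi and Ccnd1 were -0.20, -0.15 and 0.36, and Sp5 had too few UMIs. In Tgfbr2-cKO at 21 dpi, Nkd1 was higher than Ctrl by 1.18 (0.68 to 1.68), or 0.94 in female nuclei alone, and the TCF/LEF family member Tcf7 by 1.41 (0.54 to 2.23). The log2 ratio of Rspo3 was -4.46 (-9.78 to -1.95), from 1 UMI in Tgfbr2-cKO and 108 in Ctrl. Of the other Wnt genes past 2-fold there, Porcn, which attaches the lipid to Wnt ligands, was 1.04, and Ror2 (-3.51) and Fzd7 (-2.99) were lower. Summed fibroblast markers in the same nuclei were 2546 CPM in Ctrl and 203 CPM in Tgfbr2-cKO, and their part in the Rspo3, Ror2 and Fzd7 values was not tested. In ADWA11 at 7 dpi Fzd3 (1.19) was higher and Nkd2 (-1.73), Rspo3 (-1.35) and Apcdd1 (-1.13) lower. In male nuclei alone, the Nkd2 value was -0.48 and that of Apcdd1 -0.76.

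**Figure D4:**
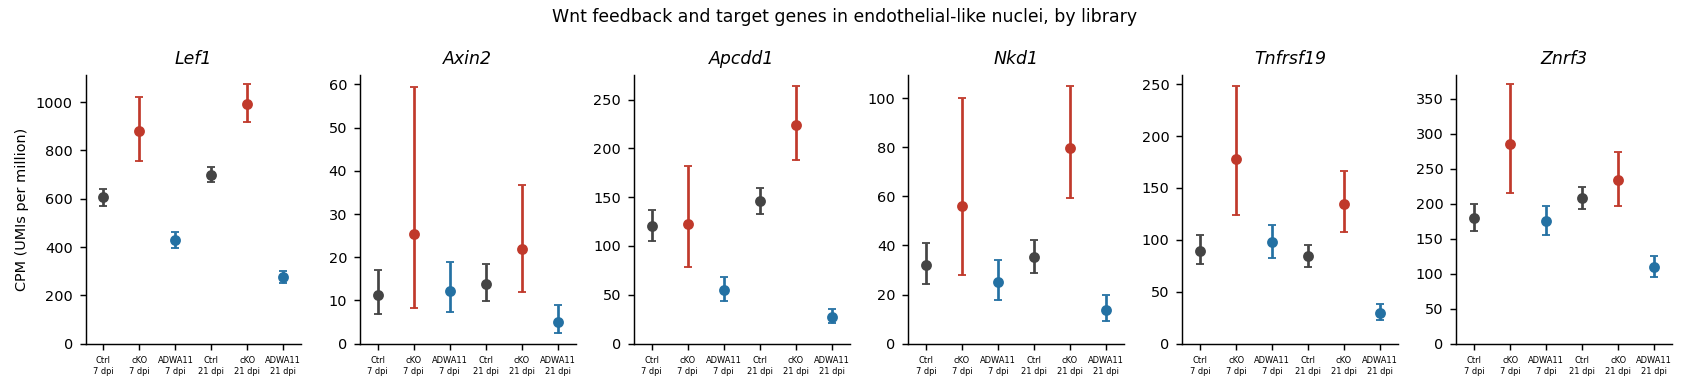
CPM of Lef1, Axin2, Apcdd1, Nkd1, Tnfrsf19 and Znrf3 in endothelial-like nuclei of the 6 libraries (vertical axes from 0, each panel with its own scale), with 95% Poisson intervals. ADWA11 at 21 dpi is the lowest library in each panel, for Lef1 at 275 CPM against 700.1 CPM in Ctrl.

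In astrocyte-like and oligodendrocyte precursor-like nuclei, Axin2 was highest in Ctrl at 7 dpi. In astrocyte-like nuclei it was read at 89.6, 40.4 and 52.9 CPM in Ctrl, Tgfbr2-cKO and ADWA11 on day 7 and 39.2, 41.0 and 35.3 CPM on day 21, with 7 dpi ratios of -1.15 (-1.56 to -0.74) in Tgfbr2-cKO and -0.76 (-1.14 to -0.38) in ADWA11. In oligodendrocyte precursor-like nuclei it was 59.7, 24.0 and 23.5 CPM on day 7 and 21.1, 24.98 and 16.7 CPM on day 21, with 7 dpi ratios of -1.32 (-1.73 to -0.92) and -1.35 (-1.62 to -1.08), and a ratio of -1.50 (-2.09 to -0.96) between 21 and 7 dpi in Ctrl. Wnt5b in astrocyte-like nuclei was 133, 56.4 and 124 CPM on day 7 and 68.0, 33.3 and 41.8 CPM on day 21, with Tgfbr2-cKO ratios of -1.24 (-1.58 to -0.90) and -1.03 (-1.25 to -0.81). Sfrp1 was 2.36, 10.2 and 1.23 CPM on day 7 and 22.1, 13.6 and 8.29 CPM on day 21 there. Its log2 ratio of 21 to 7 dpi in Ctrl was 3.23 (1.65 to 5.52), and that of ADWA11 to Ctrl at 21 dpi -1.41 (-2.11 to -0.78). The Sfrp1 values of Ctrl and ADWA11 on day 7 rest on only a few UMIs each. Summed astrocyte markers in the astrocyte-like nuclei of Ctrl, Tgfbr2-cKO and ADWA11 were 2904, 10036 and 2745 CPM on day 7 and 4489, 9189 and 3754 CPM on day 21, and summed oligodendrocyte precursor markers in them were 7213, 2698 and 5813 CPM on day 7 and 3142, 2488 and 2979 CPM on day 21. In Ctrl and ADWA11 at 7 dpi the precursor markers were thus above the astrocyte markers and in Tgfbr2-cKO below them, so the 7 dpi ratios of Axin2 and Wnt5b in this class set side by side nuclei of unlike make-up. In Ctrl at 21 dpi the precursor markers were below the astrocyte markers, so the Sfrp1 ratio between the days in Ctrl does so as well. The part of these markers in the values was not tested. In T cell-like nuclei, where Lef1 is a known marker of naive and memory states, Lef1 was 341 and 279 CPM in Ctrl and ADWA11 on day 7 and 221, 212 and 311 CPM in Ctrl, Tgfbr2-cKO and ADWA11 on day 21, with Tgfbr2-cKO on day 7 left out for its 28 nuclei. The ADWA11 ratio at 21 dpi was 0.49 (0.29 to 0.70), opposite in sign to the fibroblast and endothelial ratios.

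Dkk2 was read in myeloid nuclei as well, where it was lowest in ADWA11. The levels were 50.5, 30.6 and 18.9 CPM in Ctrl, Tgfbr2-cKO and ADWA11 on day 7 and 146, 90.4 and 4.44 CPM on day 21. The ADWA11 library was the lowest of the 3 on each day, and Ctrl the highest. The myeloid clusters were also held unequally, since most ADWA11 myeloid nuclei at 21 dpi were in cluster 1, led by Fabp4 and Slamf8, in which Dkk2 was 28.5 CPM in Ctrl and 3.87 CPM in ADWA11, a log2 ratio of -2.88 (-3.36 to -2.39). Within cluster 0, led by Plau, Hmox1 and Htr2b, it was 51.5, 50.3 and 32.7 CPM on day 7 and 195, 109 and 8.65 CPM on day 21, with ADWA11 ratios of -0.66 (-0.85 to -0.47) and -4.49 (-5.62 to -3.56). Within cluster 2, led by Cd163, Mrc1 and F13a1, it was 39.2, 3.10 and 17.0 CPM and 91.5, 53.8 and 8.56 CPM, with ADWA11 ratios of -1.21 (-1.53 to -0.87) and -3.42 (-4.07 to -2.81). The Tgfbr2-cKO value of 3.10 CPM rests on 1 UMI in 68 nuclei.

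The 2 mice of the Tgfbr2-cKO library at 21 dpi differed in myeloid Dkk2. Female nuclei were at 6.21 CPM (4.35 to 8.60) and male nuclei at 168 CPM (156 to 179), over 998 and 830 nuclei. In Ctrl at 21 dpi the mice were at 134 and 181 CPM, in ADWA11 at 5.77 and 3.91 CPM, and at 7 dpi they were at 45.6 and 49.1 CPM in Ctrl, 29.0 and 29.5 CPM in Tgfbr2-cKO and 19.4 and 16.2 CPM in ADWA11. The ADWA11 mice at 21 dpi and the female Tgfbr2-cKO mouse had like low values, and the Ctrl mice and the male Tgfbr2-cKO mouse high ones. With 1 mouse of each sex, mouse and sex cannot be told apart. In endothelial-like nuclei, 1 nucleus held 35.5% of the 166 Dkk2 UMIs of Ctrl at 7 dpi and 1 nucleus 69.2% of the 13 of Tgfbr2-cKO at 21 dpi.

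**Figure D5:**
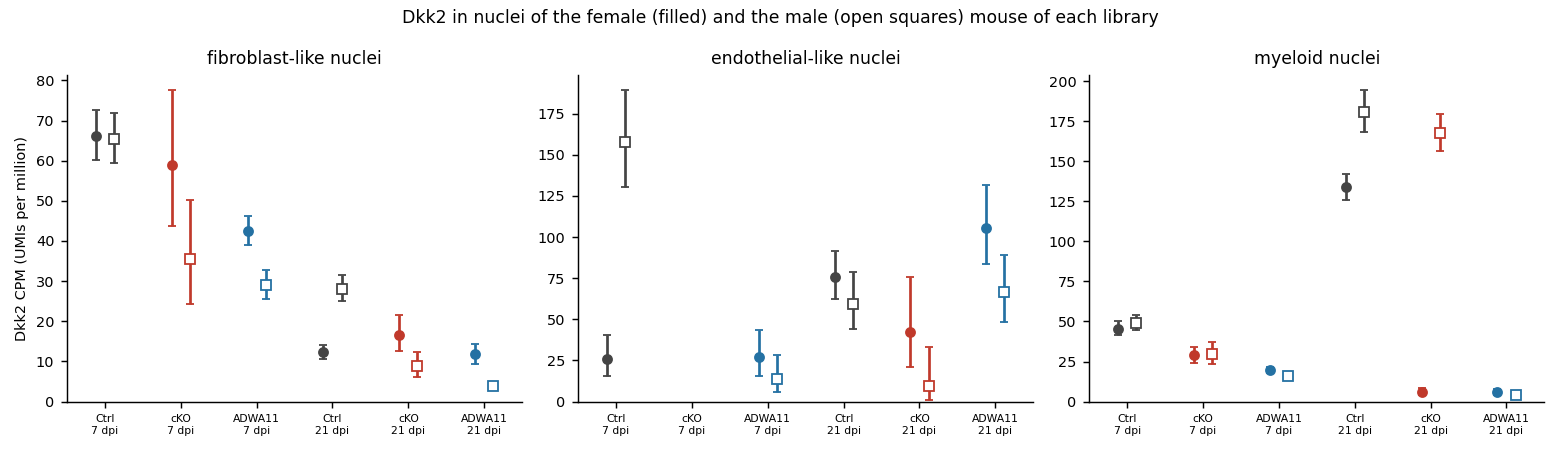
Dkk2 CPM in female (filled) and male (open) nuclei of each library, in fibroblast-like, endothelial-like and myeloid nuclei, with 95% Poisson intervals and axes from 0. In myeloid nuclei of Tgfbr2-cKO at 21 dpi the female point is at 6.21 CPM and the male point at 168 CPM.

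The other 78 genes of the Wnt lists had medians near 0 in fibroblast-like nuclei, between -0.06 and 0.01 on the log2 scale. At the 2-fold threshold, 4 were higher and 2 lower of 53 in Tgfbr2-cKO at 7 dpi, where 8.6% of all genes were higher and 5.06% lower, and 10 and 5 of 58 at 21 dpi, where these shares were 9.49% and 8.09%. In ADWA11 they were 2 and 5 of 58 at 7 dpi, against 6.88% and 3.32% of all genes, and 3 and 4 of 58 at 21 dpi, against 4.42% and 3.89%. Between 21 and 7 dpi in Ctrl they were 9 and 9 of 58, against 14% and 6.91%. The genes past the threshold are named with their values as a description. The intracellular relay, the 13 genes between receptor and nucleus, had 0 past the threshold in either direction in each of these 5 comparisons. In Tgfbr2-cKO at 7 dpi the higher genes were Wif1 (2.23), Wnt16 (1.80), Notum (1.33) and Sfrp4 (1.12) and the lower ones Lgr5 (-2.14) and Lgr6 (-1.01), each with its log2 ratio. In Tgfbr2-cKO at 21 dpi the 5 highest were Nkd1 (1.99), Rspo2 (1.78), Ptk7 (1.48), Wnt16 (1.32) and Wif1 (1.27) and the 5 lowest Lgr5 (-3.26), Rspo1 (-2.47), Wnt9a (-2.18), Sfrp4 (-1.49) and Lrp5 (-1.03). In ADWA11 at 7 dpi Fzd10 (1.63) and Wnt16 (1.29) were higher and Lgr5 (-2.17), Notum (-1.76), Nkd2 (-1.46), Wnt11 (-1.35) and Lgr6 (-1.34) lower, and at 21 dpi Wnt10b (1.52), Frzb (1.36) and Wnt16 (1.08) were higher and Rspo1 (-1.93), Lgr5 (-1.37), Apcdd1 (-1.22) and Wnt11 (-1.15) lower. Between 21 and 7 dpi in Ctrl the 5 highest were Fzd9 (2.81), Rspo1 (2.77), Sfrp4 (2.63), Notum (1.57) and Wnt16 (1.43) and the 5 lowest Wnt4 (-2.37), Lgr6 (-2.09), Tspan12 (-1.67), Tnfrsf19 (-1.64) and Nkd1 (-1.41). Lgr6 is 1 of the genes that lead sub-cluster 10, whose share was largest in Ctrl at 7 dpi (8.48%), and the part of that share in the Lgr6 ratios was not tested.

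Among ligands, Wnt16 was 5.86, 20.4 and 14.3 CPM on day 7 and 15.7, 39.2 and 33.3 CPM on day 21 in Ctrl, Tgfbr2-cKO and ADWA11, at least 2-fold above Ctrl in each treated library. Among inhibitors, Wif1, which binds ligands, was higher in Tgfbr2-cKO by 2.23 (1.24 to 3.18) and 1.27 (0.15 to 2.34). Frzb was higher in ADWA11 at 21 dpi by 1.36 (1.13 to 1.59), and Sfrp4 was 211 CPM in Ctrl and 75.1 CPM in Tgfbr2-cKO at 21 dpi.

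Among receptors and R-spondins, which amplify Wnt signals, Lgr5 was lower in each treated library, at 31.4, 7.11 and 6.97 CPM on day 7 and 30.04, 3.14 and 11.7 CPM on day 21 in Ctrl, Tgfbr2-cKO and ADWA11. Rspo1 had log2 ratios to Ctrl of -2.47 (-3.55 to -1.56) in Tgfbr2-cKO and -1.93 (-2.44 to -1.45) in ADWA11 at 21 dpi, and it is 1 of the genes that lead sub-cluster 5, held almost wholly by Ctrl at 21 dpi. Rspo2 was higher in Tgfbr2-cKO at 21 dpi by 1.78 (1.60 to 1.95). The feedback and target list had 4 of 10 genes higher (Axin2, Nkd1, Apcdd1 and Tnfrsf19) and 0 lower in Tgfbr2-cKO at 21 dpi, with a median of 0.89, against 9.49% and 8.09% of all genes. With sub-cluster shares held, Axin2 was 0.19 in this comparison. In ADWA11 at 21 dpi 0 of the list were higher and 2 lower (Lef1 and Apcdd1), with a median of -0.33, against 4.42% and 3.89%. Nkd1, from this list, was 30.7, 37.9 and 20.6 CPM on day 7 and 11.6, 46.0 and 13.4 CPM on day 21, and the Apcdd1 ratios at 21 dpi were 1.17 (0.88 to 1.45) in Tgfbr2-cKO and -1.22 (-1.58 to -0.87) in ADWA11.

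Over 27 groups, each a fibroblast sub-cluster within a library, the gene whose log2(CPM + 1) was most like that of Lef1 was Diaph2 (Pearson r = 0.92), followed by Slc9a3r1 (r = 0.92) and Plat (r = 0.91). Axin2 was most like Fam49a (r = 0.89) and Lepr (r = 0.87), and Wnt5a was most like Peli2 and Ralgps2 (r = 0.94 each). Dkk2 was most like Pprc1 (r = 0.90) and Dnm3os (r = 0.87), Wnt5b like Plekha5 (r = 0.88) and Sfrp2 like Comp (r = 0.84), a cartilage matrix gene. For Sfrp1 the gene was E130308A19Rik (r = 0.83), for Wnt6 Gm40604 (r = 0.82), for Wnt2 Ap1ar (r = 0.81) and for Dkk3 Flt3l (r = 0.80). The groups share libraries and sub-clusters, so these are descriptions without a test, and the values for Wnt2, Wnt6, Sfrp1 and Sfrp2 rest on low counts.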

How the data were processed

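Nuclei of 6 photothrombotic lesion libraries were sequenced with a droplet kit that counts the ends of transcripts. The authors aligned reads to mm10 and deposited raw UMI counts per gene and barcode from Cell Ranger, whose version is 7.2.0 in the file headers and 7.1.0 in the labels. The members and gene lists were chosen with earlier results of these data known. Barcodes outside percentile 2.5 at either end of UMIs or genes, or in the top of the mitochondrial share, were left out, and doublets were called (scrublet scores in scanpy 1.11.5, the highest-scoring barcodes up to a number set by the barcodes loaded). Sub-clusters with most nuclei called were removed, and other called nuclei were kept, with an alternative without them. Nuclei were clustered in Seurat 5.3.0 (R 4.3.3) after SCTransform (sctransform 0.4.2), with 3000 variable genes, 30 components and resolutions of 0.5 and 0.2 for all and fibroblast-like nuclei, and with the 88 Wnt genes left out of the variable genes. A cluster was named "-like" when at least 3 markers of a class were raised. One cluster of 3636 nuclei with low UMI counts, sub-clusters led by bone genes (615 nuclei) and a doublet sub-cluster (712 nuclei) were left out of the fibroblast-like class by a rule set after the clusters were seen.

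For each class of nuclei in a library, UMIs were summed and scaled to the non-mitochondrial total. Levels have exact Poisson 95% intervals and ratios exact conditional binomial ones, which cover counting error only. Ratios were counted with at least 20 UMIs over both libraries, both groups of a ratio had at least 30 nuclei, and 0 UMIs were set to a floor of 3 for a bound. Other Wnt genes named are the 5 with the largest ratio past 2-fold in each direction in fibroblast-like nuclei and 3 in endothelial-like nuclei. The most similar genes were taken over groups of at least 50 nuclei among genes with at least 200 UMIs. Nuclei were assigned to the female or male mouse by Xist or Y-linked UMIs. The ratio script was tested on simulated data. Alternatives were TMM factors (edgeR 4.0.16), the mean per nucleus, log-normalised clustering, gating on marker UMIs, nuclei of 1 mouse, and changes to the filters and to the sub-cluster shares. Coordinates are from GENCODE M21 (GRCm38), matched by identifier for 32158 features.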

Additional observations from a re-analysis of the deposited data

Results flagged for a closer look

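Wnt5a and Dkk3 were the members whose ADWA11 to Ctrl ratio in fibroblast-like nuclei had opposite signs at the 2 days, with intervals that exclude 0 on each. The Wnt5a log2 ratio was 0.24 (0.14 to 0.35) at 7 dpi and -0.36 (-0.48 to -0.24) at 21 dpi, a difference of -0.60. With sub-cluster shares held, the Wnt5a ratio at 7 dpi was 0.016, and within sub-clusters 1, 2 and 3 it was -0.0050 (-0.18 to 0.17), 0.08 (-0.23 to 0.40) and -0.03 (-0.22 to 0.16), with intervals that hold 0. The Dkk3 log2 ratio was -0.73 (-0.81 to -0.65) at 7 dpi and 0.48 (0.41 to 0.55) at 21 dpi, a difference of 1.21. With sub-cluster shares held, the Dkk3 ratio at 21 dpi was 0.25. Within sub-clusters 0 and 2 it was 0.27 (0.18 to 0.35) and 0.41 (0.21 to 0.61). Sub-clusters 3 and 9 were at 184 and 135 CPM in ADWA11 against 174 and 135 CPM in Ctrl. With 1 library per condition and day, these differences between the days were not tested.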

How the results depend on the processing

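No paired analysis was possible because each group had 1 library and the labels gave no replicate numbers. The members past 2-fold in fibroblast-like nuclei numbered 3 and 4 in Tgfbr2-cKO at 7 and 21 dpi, 2 and 3 in ADWA11 and 4 between the days in Ctrl. In the same order, 8.6%, 9.49%, 6.88%, 4.42% and 14% of all genes were higher by 2-fold. Those lower were 5.06%, 8.09%, 3.32%, 3.89% and 6.91%. These shares are of the main setting, and the counts under alternatives have no such share beside them. In female nuclei only, the Tgfbr2-cKO count at 7 dpi was 0. Without sub-cluster 7, which had no named fibroblast subtype and 4 raised oligodendrocyte markers, the Tgfbr2-cKO count at 21 dpi was 7. With sub-cluster shares held, an alternative chosen after seeing the data, it was 2, and that between the days in Ctrl was also 2. Shares held also changed the sign of Dkk2, to 0.11 in ADWA11 at 21 dpi and 0.87 between the days in Ctrl, and female nuclei only, for endothelial-like nuclei also chosen after seeing the data, gave a Dkk2 ratio of 0.076 in ADWA11 at 7 dpi. The cause of these changes was not tested. Of 538 single-gene ratios in fibroblast-like nuclei over 11 alternatives, 424 moved by less than the counting interval, 112 moved further and 2 changed sign after passing 2-fold. Sign changes of ratios under 2-fold are not in that count of 2. For example, Lef1 in Tgfbr2-cKO at 7 dpi (0.02) kept its sign in 6 of 11 alternatives, and Wnt5b in ADWA11 at 21 dpi (0.004) in 5 of 11. TMM scaling and leaving out called doublets moved 0 of 49 each, and the nuclei of 1 mouse moved 25 of 49 each. Adding the low-UMI cluster or the bone-led sub-clusters, both chosen after seeing the data, moved 2 of 49 each. Depth limits Wnt2, Wnt6, Sfrp1 and Sfrp2 most, with as few as 2 UMIs in a library.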

Other observations

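In mural-like nuclei, the contractile cells around vessels, Lef1 was higher in the Tgfbr2-cKO libraries than in the others. It was read at 33.0, 142 and 38.0 CPM in Ctrl, Tgfbr2-cKO and ADWA11 on day 7 and 45.1, 125 and 27.6 CPM on day 21, from 39 to 152 nuclei per library. The Tgfbr2-cKO values rest on 18 and 40 UMIs. Summed endothelial markers in the mural-like nuclei were 580, 756 and 828 CPM on day 7 and 1069, 837 and 643 CPM on day 21 in Ctrl, Tgfbr2-cKO and ADWA11. Endothelial-like nuclei held Lef1 at far higher levels, as given above. The part of these markers in the mural values was not tested. In the myeloid cluster led by cycling genes, Dkk2 was 49.99, 49.8 and 15.1 CPM in Ctrl, Tgfbr2-cKO and ADWA11 at 7 dpi, and ADWA11 at 21 dpi had 0 UMIs in 43 nuclei, against 97.6 CPM in Ctrl, where 1 of 81 nuclei held 54.2% of the 59 UMIs. In the myeloid cluster led by Siglech and Crybb1, Dkk2 was 55.8 CPM in Ctrl and 12.3 CPM in Tgfbr2-cKO on day 7, and 125 and 118 CPM on day 21.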
